A study of Bos taurus with 4 samples.

Results

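The genes described here encode vascular endothelial growth factors, angiopoietins, their receptors and thrombospondin 1, measured in granulosa cells of cattle. Every probe whose symbol in the platform's probe-to-gene table was VEGFA, VEGFB, VEGFC, FLT1, KDR, NRP1, NRP2, ANGPT1, ANGPT2 or THBS1 was taken. This gave 13 of 43794 probes for 10 genes, with 2 probes for VEGFA, 3 for NRP1 and 1 for each other gene. Granulosa cells, the somatic cells that line the ovarian follicle and support the oocyte, came from Holstein cattle after ovarian stimulation and coasting, an interval without hormone before collection. They were combined into pools from donors rated good or poor by the developmental competence of their oocytes, and linear amplification of each pool's total RNA preceded labelling. On each of 4 two-colour arrays, 1 good-donor pool was hybridised against 1 poor-donor pool. Good-donor pools 1 and 2 were in Cy5 against poor-donor pools 9 and 10 in Cy3 on arrays 1 and 2, and the dyes were exchanged on arrays 3 and 4, which paired pool 3 with pool 11 and pool 4 with pool 12. The submitters' design text names both cows and heifers, 94 animals in all, and contrasts the age classes, whereas the title and array labels name heifers, so a difference in age class cannot be told apart from donor quality. The labels give neither ages nor the number of animals in a pool, and the spread between arrays is that between these pools, not between animals.

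VEGFA drives endothelial growth and vessel permeability through its receptors FLT1 and KDR, and VEGFB and VEGFC are related ligands. Neuropilins 1 and 2 bind both these growth factors and class 3 semaphorins. ANGPT1 activates the endothelial receptor TEK and stabilises vessels, ANGPT2 acts on the same receptor and can oppose ANGPT1, and THBS1 is a matrix glycoprotein that restrains vessel growth. The granulosa layer of the antral follicle has no vessels of its own before ovulation, and granulosa cells are a known source of VEGFA for the vessels of the surrounding theca.

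Of the 10 genes, 9 gave signals above the control spots in enough pools to be tested, and no member changed between donor groups after adjustment. A channel counted as above background when the spot was brighter than 95% of that channel's dark and negative controls, and probes above it in at least 4 of 8 channels were tested. Of 13 member probes, 12 were tested and 8 were above background in all 8 channels. The probe of FLT1, a receptor for VEGFA and VEGFB, was above it in 0 of 8 channels, so no fold change is given for it. Across 31917 tested probes, 0 (0%) had a limma adjusted p under 0.05, and 0 of the 12 member probes did. At an unadjusted p under 0.05 the test gave 1131 probes, or 3.54%, made up of 694 (2.17%) with more and 437 (1.37%) with less signal in good-donor pools. Of the 12 member probes 1 was among those with more, that of VEGFC, and 0 among those with less. The median foreground per channel was 49.9 to 54.3 intensity units in Cy5 and 90.5 to 132 in Cy3. The good over poor ratios of array 1 ran against those of array 3 across probes (r = -0.34), while arrays 3 and 4, with the same dye orientation, had r = 0.29. The direction of each array was kept as its dye labels state it. Values below are log2 intensities per pool and log2 ratios of good over poor, where a negative ratio means less signal in the good-donor pool. Levels are compared within a probe only, since probes differ in brightness for the same amount of RNA. In such pools, fewer cells of a type and less RNA per cell cannot be told apart.

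**Figure D1:**
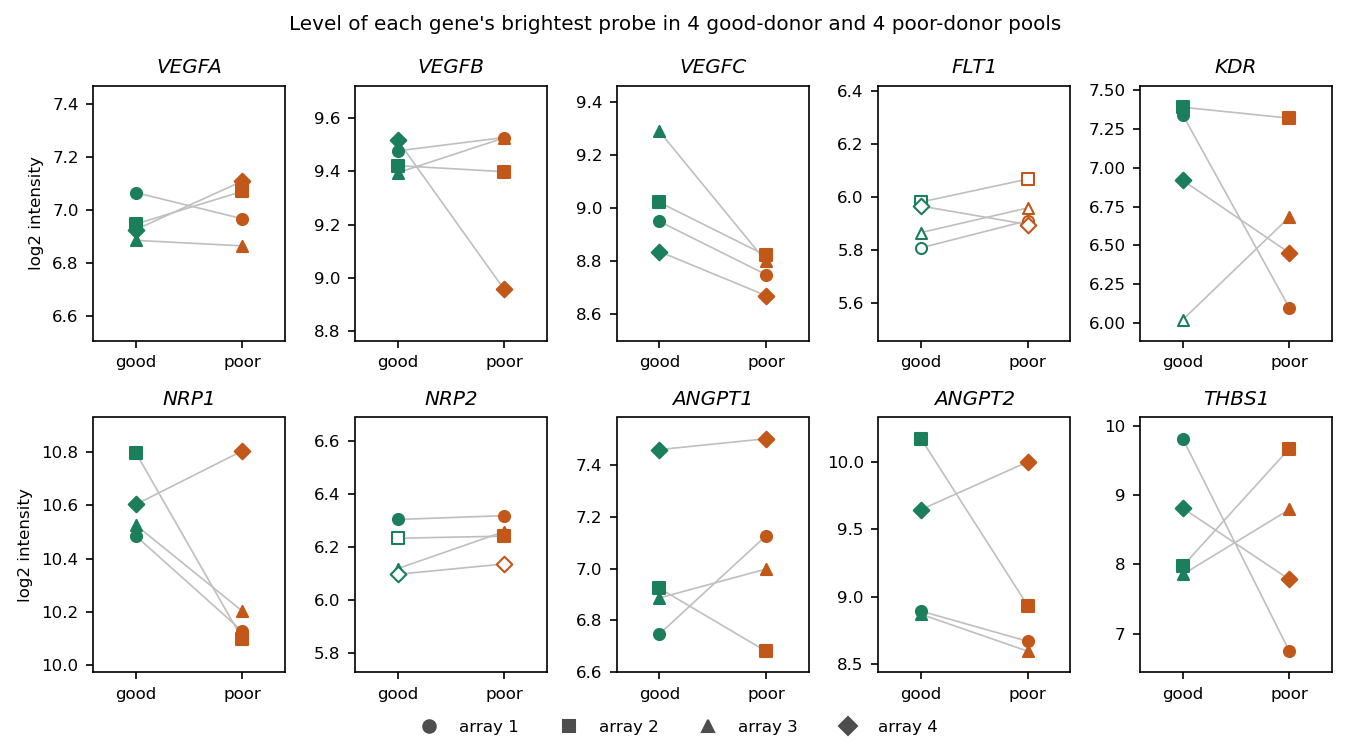
Log2 intensity (y axis of each panel, scaled separately) of the brightest probe of each gene in good-donor and poor-donor pools. Marker shape gives the array, grey lines join the 2 pools of an array, and open markers are signals not above the control spots. VEGFC alone has all 4 good-donor pools above all 4 poor-donor pools, THBS1 spans 6.75 to 9.81, and all 8 FLT1 signals are open.

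VEGFC, a ligand of FLT4 and KDR known for its part in the growth of lymphatic vessels, was the member whose good-donor and poor-donor levels did not overlap. Its log2 intensity was 8.95, 9.02, 9.29 and 8.84 in good-donor pools 1 to 4 and 8.75, 8.82, 8.80 and 8.67 in poor-donor pools 9 to 12. Every good-donor pool lay above every poor-donor pool, though the lowest good value and the highest poor value were only 8.84 and 8.82. Pool levels without overlap were found for 603 of 31917 tested probes, or 1.89%, and for 1 of the 12 member probes. The good over poor ratio was 0.20, 0.20, 0.49 and 0.17 on arrays 1 to 4, so the sign held in both dye orientations, with means of 0.20 with the good pool in Cy5 and 0.33 with it in Cy3. The mean was 0.26 ± 0.15 (SD, n = 4), a 1.20-fold higher signal in good-donor pools, with a 95% interval of 0.07 to 0.46. It did not pass adjustment over all probes (limma adjusted p = 1.00). The unadjusted limma p was 0.0174 and an exact two-sided sign-flip permutation test gave p = 0.125, the smallest that 4 arrays allow. The mean was 0.19 without array 3, which held the highest ratio, and the unadjusted p rose to 0.138 with median centring in place of loess.

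**Figure D2:**
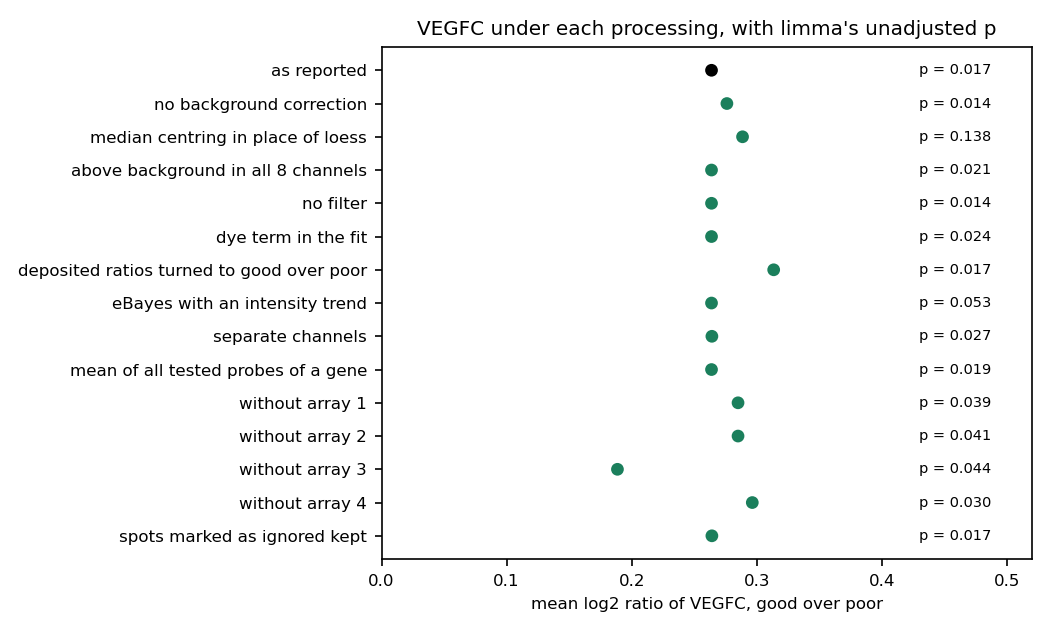
Mean log2 ratio of VEGFC, good over poor (x axis), under the reported processing (black) and each alternative (green), with limma's unadjusted p at the right. The means lie between 0.19 and 0.31, and the p values between 0.0137 and 0.138.

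Ratios of 1 sign throughout the 4 arrays occurred in 2 of the 12 member probes, those of VEGFC and NRP2, against 9.29% of all tested probes. NRP2, a co-receptor for VEGFC and semaphorins, had ratios of -0.01, -0.01, -0.14 and -0.04 on arrays 1 to 4. It was dim, above background in 1 good-donor pool and in 3 poor-donor pools, and its mean was -0.05 ± 0.06 (SD, n = 4) (limma adjusted p = 1.00). All of its ratios were close to 0.

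VEGFA itself barely varied among the pools. Its brightest probe read 7.06, 6.95, 6.88 and 6.93 in good-donor pools 1 to 4 and 6.97, 7.07, 6.86 and 7.11 in poor-donor pools 9 to 12. The groups overlapped, and the highest pool was 1.18-fold above the lowest. The ratios of 0.10, -0.12, 0.02 and -0.18 averaged -0.05 ± 0.13 (SD, n = 4), with a 95% interval of -0.22 to 0.13 (limma adjusted p = 1.00). The second VEGFA probe averaged 0.01 ± 0.12 (SD, n = 4), with a 95% interval of -0.16 to 0.18, and was above background in 4 good-donor and 3 of 4 poor-donor pools. Both intervals stay well under a change of 1 on the log2 scale, but both probes were dim, with their brightest foreground at 0.525% and 0.354% of the brightest probe of its channel. A normexp offset of 50 draws ratios of dim probes towards 0.

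The 5 genes whose pool levels followed VEGFA most closely were NUCB2, AS3MT, CYB561, PGM5 and MPZL3, with Pearson's r from 0.94 to 0.98 over 8 pools. They are the top of 10433 genes above background in every channel, and the pools share arrays and dyes in pairs, so r is a description only. NUCB2, a calcium-binding protein, had ratios of 0.25, -0.54, 0.03 and -0.68 on arrays 1 to 4. These ran the same way as the brightest VEGFA probe on each array and over a wider range.

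VEGFB, a ligand of FLT1, was level in 7 of the 8 pools. It read 9.48, 9.42, 9.39 and 9.52 in good-donor pools and 9.53, 9.40, 9.53 and 8.96 in poor-donor pools. Poor-donor pool 12 was the lowest, and the other poor-donor pools overlapped the good-donor range. The mean ratio was 0.10 ± 0.31 (SD, n = 4), set by 0.56 on array 4, and it was -0.05 without that array (limma adjusted p = 1.00 with all arrays).

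KDR, the main signalling receptor of VEGFA on endothelial cells, varied more between pools than 96.4% of tested probes. It read 7.34, 7.39, 6.02 and 6.92 in good-donor pools 1 to 4 and 6.10, 7.32, 6.68 and 6.45 in poor-donor pools 9 to 12, and pool 3 was not above background. The probe was dim, with its brightest foreground at 0.626% of the brightest probe of its channel. High and low pools were found in both groups. The ratios were 1.25, 0.07, -0.66 and 0.47 on arrays 1 to 4, with a mean of 0.28 ± 0.80 (SD, n = 4) and a 95% interval of -0.52 to 1.08 (limma adjusted p = 1.00). The mean was 0.66 on the arrays with the good pool in Cy5 and -0.10 on the others. Without array 1 the mean was -0.04.

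Markers of endothelial cells, which carry KDR, were dim on these arrays. Of 20 listed markers 19 had a probe, 13 were tested and 9 were above background in all 8 channels. The probe of PECAM1, an adhesion molecule of endothelial junctions, was above background in 0 of 8 channels and that of TIE1, a receptor that partners TEK, in 1 of 8. Probes of CDH5, a cadherin of endothelial junctions, and VWF, a clotting factor carrier, were above it in 8. The summed level of the tested markers was 1127 to 1182 intensity units in good-donor pools and 1112 to 1162 in poor-donor pools. Their mean log2 levels lay between 6.14 and 6.95 and include the offset of 50 added to every spot, which makes up much of the sum and steadies it, so the sum says little about endothelial content. Its part in the KDR level was not tested. Their median ratio was -0.004, with 6 of 13 higher, and ERG, ESAM, EMCN and TEK, the 4 with the smallest p, had mean ratios of -0.08, 0.07, 0.20 and 0.06.

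NRP1, a co-receptor for VEGFA and semaphorins, was measured by 3 probes that disagreed. The brightest read 10.49, 10.80, 10.53 and 10.60 in good-donor pools and 10.13, 10.10, 10.20 and 10.81 in poor-donor pools. Poor-donor pools 9, 10 and 11 lay below every good-donor pool, and poor-donor pool 12 lay above them all. The mean ratio was 0.30 ± 0.37 (SD, n = 4), with a 95% interval of -0.10 to 0.69 (limma adjusted p = 1.00). Without array 4, which holds pool 12, it was 0.46 (limma adjusted p = 1.00). The brightest probe's mean was 0.53 on the arrays with the good pool in Cy5 and 0.06 on the others. The other probes gave -0.05 ± 0.31 and 0.09 ± 0.09 (SD, n = 4), and the mean over the 3 probes was 0.11. The probe at 0.09 was dim, above background in 3 good-donor and 2 poor-donor pools, so its ratio says little. The difference seen by the brightest probe was not shared by the probe at -0.05. The probe at -0.05 was positive on both arrays with the good pool in Cy5 and negative on both others, a split found in 2 of 12 member probes and 29.3% of all tested probes.

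ANGPT1, the activating ligand of TEK, had a mean ratio of -0.07 ± 0.26 (SD, n = 4), with a 95% interval of -0.36 to 0.21 (limma adjusted p = 1.00). Its highest levels, 7.46 and 7.50, were those of the good-donor and the poor-donor pool of array 4, and the other 6 pools lay between 6.68 and 7.13. The groups overlapped throughout. This probe too was dim, with its brightest foreground at 0.580% of the brightest probe of its channel.

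ANGPT2, the context-dependent antagonist at TEK, read 8.90, 10.17, 8.87 and 9.65 in good-donor pools 1 to 4 and 8.67, 8.94, 8.60 and 10.00 in poor-donor pools 9 to 12. Pools 2, 12 and 4 stood above the other 5, and they include both donor groups. The ratios were 0.22, 1.23, 0.27 and -0.35, with a mean of 0.34 ± 0.66 (SD, n = 4) and a 95% interval of -0.32 to 1.01 (limma adjusted p = 1.00). The mean was 0.73 on the arrays with the good pool in Cy5 and -0.04 on the others. Pool levels of ANGPT2 followed those of the brightest NRP1 probe, with Pearson's r = 0.86 and Spearman's rho = 0.69 over 8 pools, and r = 0.92 without the 2 pools farthest from the NRP1 median. This pair was the closest of 36 pairs of members and was chosen for that, and the pools share arrays and dyes.

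THBS1, the inhibitor of vessel growth that binds CD36 and CD47, was the most variable member. It read 9.81, 7.98, 7.85 and 8.81 in good-donor pools 1 to 4 and 6.75, 9.67, 8.79 and 7.78 in poor-donor pools 9 to 12. The highest pool was 8.35-fold above the lowest, a range wider than that of 99.5% of tested probes, and both groups held high and low pools. The ratios were 3.06, -1.69, -0.94 and 1.03 on arrays 1 to 4, so each sign occurred once in each dye orientation. Their mean was 0.36 ± 2.13 (SD, n = 4), with a 95% interval of -1.77 to 2.50 (limma adjusted p = 1.00), and it was -0.53 without array 1. These 4 arrays therefore bound a donor difference in THBS1 only loosely.

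**Figure D3:**
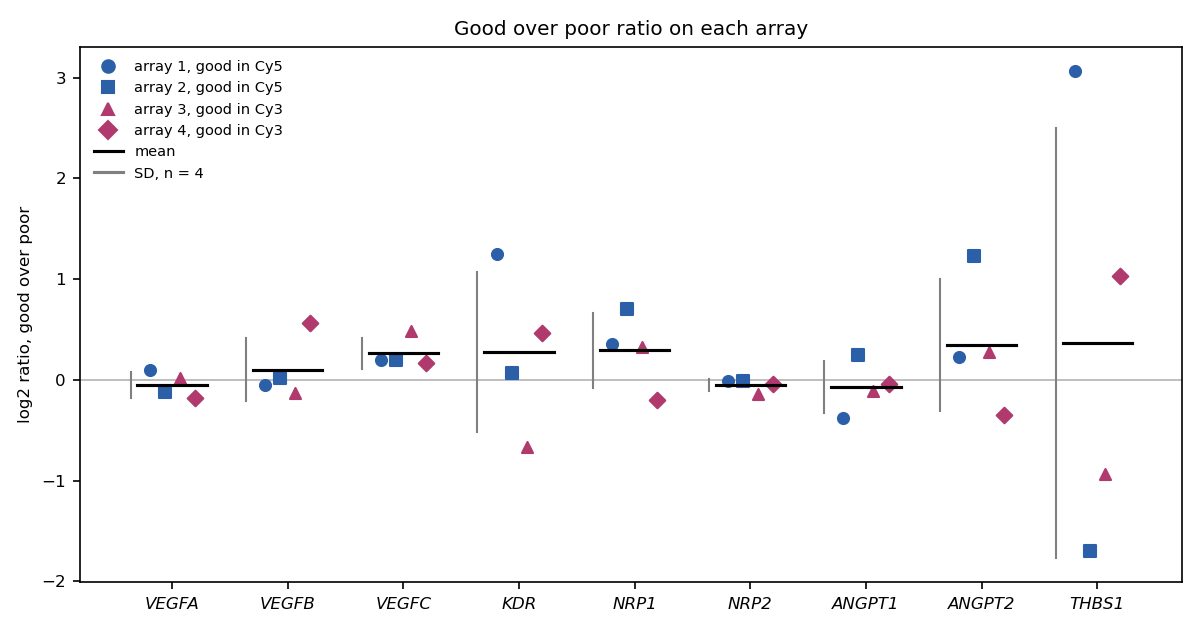
Log2 ratio of good over poor on each array (y axis) for the brightest probe of the 9 tested genes. Blue and pink mark the dye of the good-donor pool, the black bar is the mean and the grey line the mean plus and minus 1 SD over 4 arrays. VEGFC has 4 positive ratios, and THBS1 runs from -1.69 to 3.06.

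The levels of KDR and THBS1 followed each other in part. Over 8 pools Pearson's r was 0.74 and Spearman's rho 0.69, and r fell to 0.52 without the 2 pools farthest from the KDR median, so the relation rests in part on those. Pools 1 and 10 were high for both genes and pool 9 was low for both. Pool 2, the highest for KDR at 7.39, read 7.98 for THBS1, and pool 3, the lowest for KDR and not above background, read 7.85 for THBS1. Markers of other cells followed these levels to different degrees. OVGP1, the glycoprotein of oviduct epithelium, read 10.94, 10.02, 6.65 and 9.53 in good-donor pools 1 to 4 and 6.45, 12.30, 10.28 and 10.03 in poor-donor pools 9 to 12. DCN, a matrix proteoglycan of stromal cells, read 10.24, 9.84, 9.18 and 9.42 in good-donor pools and 8.11, 11.07, 9.59 and 8.27 in poor-donor pools. Both were lowest in pool 9 and highest in pool 10, and both were singled out after their values were seen. Over the 8 pools, r with KDR and with THBS1 was 0.85 and 0.82 for OVGP1, and 0.80 and 0.87 for DCN. LUM, on the same list as DCN, had 0.50 with KDR and 0.84 with THBS1, and the growth regulator CCN2 had 0.64 and 0.89. Less close to both were COL1A1, a fibrillar collagen chain, with 0.56 and 0.48, and EPCAM, an epithelial adhesion molecule, with 0.27 and -0.003. The endothelial markers VWF and CDH5, both dim, had 0.41 and 0.49, and 0.12 and 0.41. For the platelet marker PPBP the values were -0.42 and -0.41, for CYP17A1 0.41 and 0.50, and for the granulosa marker INHA 0.17 and 0.04. All 16 tested pericyte, smooth muscle and theca markers together summed to 9802 to 12959 in good-donor and 10276 to 14354 in poor-donor pools. The brightest probes in this sum were ACTA2 and MCAM, with mean levels of 12.10 and 11.16 in the good and 12.10 and 11.00 in the poor group. CYP17A1, on the same list, was dim at 6.32 and 6.31 and adds little to the sum. The 13 tested surface and oviduct epithelium markers summed to 5774 to 18623 in good-donor and 10337 to 64107 in poor-donor pools. The epithelium sum was highest in pool 12, where KDR read 6.45 and THBS1 7.78. The brightest probe in that sum was KRT19, with mean levels of 12.78 in the good and 13.78 in the poor group. The pericyte, smooth muscle and theca sum was highest in pools 10, 1 and 2 (14354, 12959 and 12954), where KDR was highest too. It was lowest in pool 3 (9802), also the lowest for KDR, but was 10087 in pool 4, where KDR read 6.92. THBS1 was high in pools 1 and 10, read 7.98 in pool 2 and was lowest in pool 9. Neither sum followed both genes in every pool. The part of such cells in the levels of KDR and THBS1 was not tested.

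**Figure D4:**
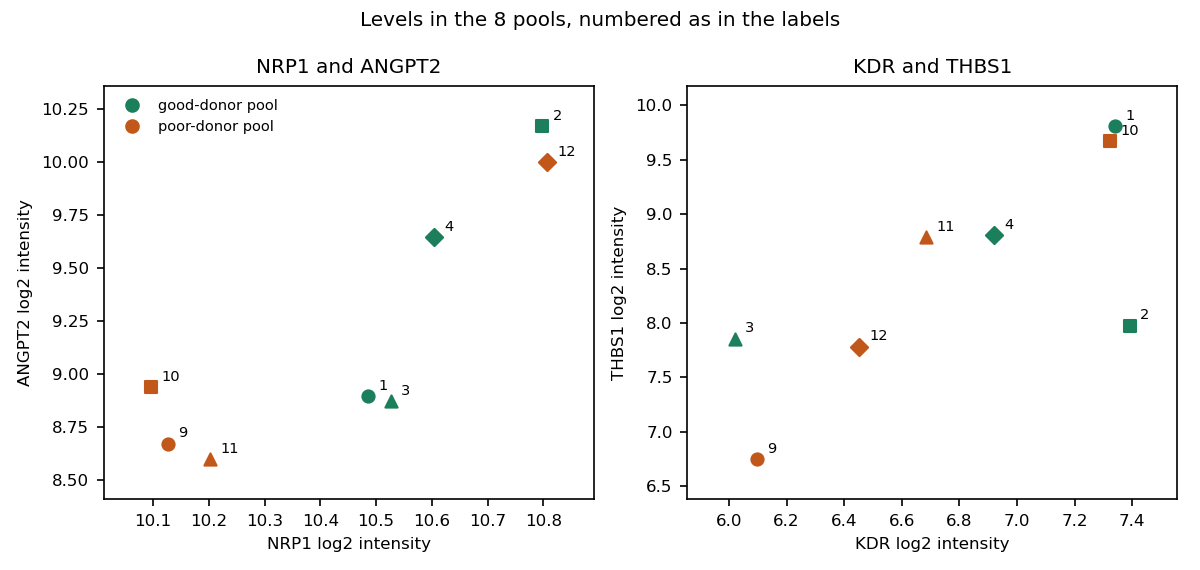
Log2 intensities of NRP1 against ANGPT2 (left) and of KDR against THBS1 (right) in the 8 pools, numbered as in the labels, green for good-donor and orange for poor-donor pools. Pools 2, 4 and 12 are high for both NRP1 and ANGPT2, pools 1 and 10 are high for both KDR and THBS1, and pool 2 is highest for KDR with a THBS1 level of 7.98.

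Platelets also carry THBS1, and their markers were read beside it. Of 10 platelet markers 8 had a probe and 4 were tested, with a summed level of 1229 to 1642 in good-donor and 1144 to 1863 in poor-donor pools. Most of this sum came from the GP1BA probe, whose mean level was 10.10 in the good and 10.16 in the poor group, while the means of PPBP, GP9 and CLEC1B lay between 6.39 and 6.62. The part of platelets in the THBS1 level was not tested. The chemokine PPBP had a mean ratio of -0.21 ± 0.38 and the platelet glycoproteins GP1BA and GP9 had -0.05 ± 0.51 and -0.03 ± 0.51 (SD, n = 4). CLEC1B, a platelet receptor, had 0.00 ± 0.18.

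By gene, 6 of the 9 tested members had a higher mean in good-donor pools, with a median ratio of 0.26, against 48.4% of 12598 tested genes and a median of -0.003. The 9 values come from the same 4 arrays and are not independent. By array the members' median was 0.20 and 0.07 on arrays 1 and 2, with the good pool in Cy5. It was -0.11 and -0.04 on arrays 3 and 4, with the good pool in Cy3, so its sign followed the dye orientation.

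Other genes of the same pathways had list medians near 0, with single genes further out in both directions. Of 30 listed further genes of VEGF, angiopoietin and Notch signalling, 19 were tested, with 12 higher, 7 lower, a median of 0.02 and 0 past the test in either direction. DLL4, the Notch ligand of sprouting vessels, had 0.19 ± 0.14, the transcription factor HEY2 0.15 ± 0.15 and PGF, another ligand of FLT1, 0.17 ± 0.28 (SD, n = 4). The Notch ligand JAG1 had -0.67 ± 1.41, while its other probe gave -0.06. Of 23 tested further angiogenic growth factors and receptors, 9 were higher and 14 lower, with a median of -0.02 and 0 past the test. ECE1, which processes endothelins, had 0.42 ± 0.45, the growth factor MDK -0.41 ± 0.47, the ribonuclease ANG -0.33 ± 0.67 and the peptide APLN -0.05 ± 0.03 (SD, n = 4).

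Among 22 tested inhibitors of angiogenesis and receptors or relatives of THBS1, 9 were higher and 13 lower, with a median of -0.03 and 0 past the test. CD47 and CD36, the receptors of THBS1, had -0.42 ± 0.66 and -0.15 ± 0.23, and their other probes gave -0.04 and -0.22 for CD47 and 0.06 and -0.05 for CD36. The collagen chain COL4A3 had 0.29 ± 0.32 and the matrix protein SPARC 0.50 ± 0.67 (SD, n = 4). The ratios of SPARC were 1.30, 0.57, -0.35 and 0.47 on arrays 1 to 4.

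Genes linked to oxygen sensing, an input that raises VEGFA in many tissues, were looked at in 2 lists. Of 17 tested hypoxia-inducible factors and regulators of VEGFA, 7 were higher and 10 lower, with a median of -0.03. SP1, a transcription factor that binds GC-rich promoters, had 0.16 ± 0.08 (SD, n = 4; limma adjusted p = 1.00), but its other probes gave -0.01 and 0.07. EGLN3, an oxygen-sensing hydroxylase, had -0.81 ± 0.91, HIF1AN, an inhibitor of HIF1A, -0.11 ± 0.08, and the RNA-binding protein ZFP36L1 -0.61 ± 1.09, with its other probe at -0.05. Of 19 tested hypoxia target genes, 2 had a higher and 17 a lower mean in good-donor pools, with a median of -0.10. Unadjusted p values under 0.05 were found for 3 of the 19 on the lower side, against 1.91% of all genes, and 0 passed after adjustment (limma adjusted p = 1.00 for each). ALDOA and TPI1, enzymes of glycolysis, had -0.46 ± 0.27 and -0.29 ± 0.23, and PFKFB3, which promotes glycolysis, had -0.33 ± 0.31 (SD, n = 4). P4HA1, a collagen prolyl hydroxylase, had 0.17 ± 0.13, and its other probes gave 0.13 and -0.05. The list's median was 0.08 on array 1 and -0.15, -0.16 and -0.17 on arrays 2 to 4. The brightest VEGFA probe was higher on arrays 1 and 3 and lower on arrays 2 and 4. The second VEGFA probe had -0.05, -0.10, 0.18 and 0.01 on arrays 1 to 4.

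The pools carried granulosa transcripts throughout, with all 15 granulosa markers tested and 14 above background in all 8 channels. Their median ratio was 0.17, with 14 of 15 higher. The 4 with the smallest p were LHCGR at 0.28 ± 0.23, FOXL2 at 0.17 ± 0.11, GATA4 at 0.30 ± 0.28 and HSD17B1 at 0.50 ± 0.54 (SD, n = 4). Unadjusted p values under 0.05 were found for 2 of the 15 on the higher side, against 2.71% of all genes, and 0 passed after adjustment. FOXL2 was above background in only 2 of 4 poor-donor pools. Poor-donor pool 12, which stood apart for NRP1 and VEGFB, also had the highest sums of leukocyte and of epithelium markers. The 16 tested leukocyte markers summed to 7376 there, against 2212 to 2895 in the other poor-donor pools and 1635 to 2715 in good-donor pools, and ITGAM, CD79A and NKG7 were above background in 0 of 8 channels. The brightest probes of this sum in the poor group were S100A9, LYZ and S100A8, with mean levels of 9.19, 8.52 and 8.43. On array 4, which holds pool 12, their ratios were -4.67, -2.46 and -3.57. The median ratio of the 16 leukocyte markers was -0.19, with 15 of 16 lower, and by array it was 0.10, -0.16, -0.005 and -0.68, so array 4 was the farthest from 0. The markers S100A9, S100A8, CD14 and CD3D had -1.84 ± 1.97, -1.43 ± 1.63, -0.73 ± 0.75 and -0.62 ± 0.62 (SD, n = 4). The epithelium markers had a median of -1.001, with 11 of 13 lower, and medians of 0.24, -0.92, -0.71 and -2.79 on arrays 1 to 4. On the lower side 4 of the 13 had an unadjusted limma p under 0.05, against 1.91% of all genes, and 0 passed after adjustment. The markers KRT4, PIGR, WFDC2 and EPCAM had -3.22 ± 2.27, -1.82 ± 1.23, -1.50 ± 1.05 and -1.37 ± 1.16 (SD, n = 4). For KRT4 3 of 4 good-donor pools were above background, the other EPCAM probe gave 0.02, and the other PIGR probes gave -1.70 and -0.27. Pericyte, smooth muscle and theca markers had a median of -0.02, with COL3A1, COL1A1, DES and CSPG4 at -0.42, -0.41, -0.07 and -0.22, and oocyte markers a median of -0.01 over 6 tested genes, with DDX4, ZP2, BMP15 and OOSP2 between -0.05 and 0.02. The part of pool 12's other cells in the NRP1, VEGFB and VEGFC levels was not tested.

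**Figure D5:**
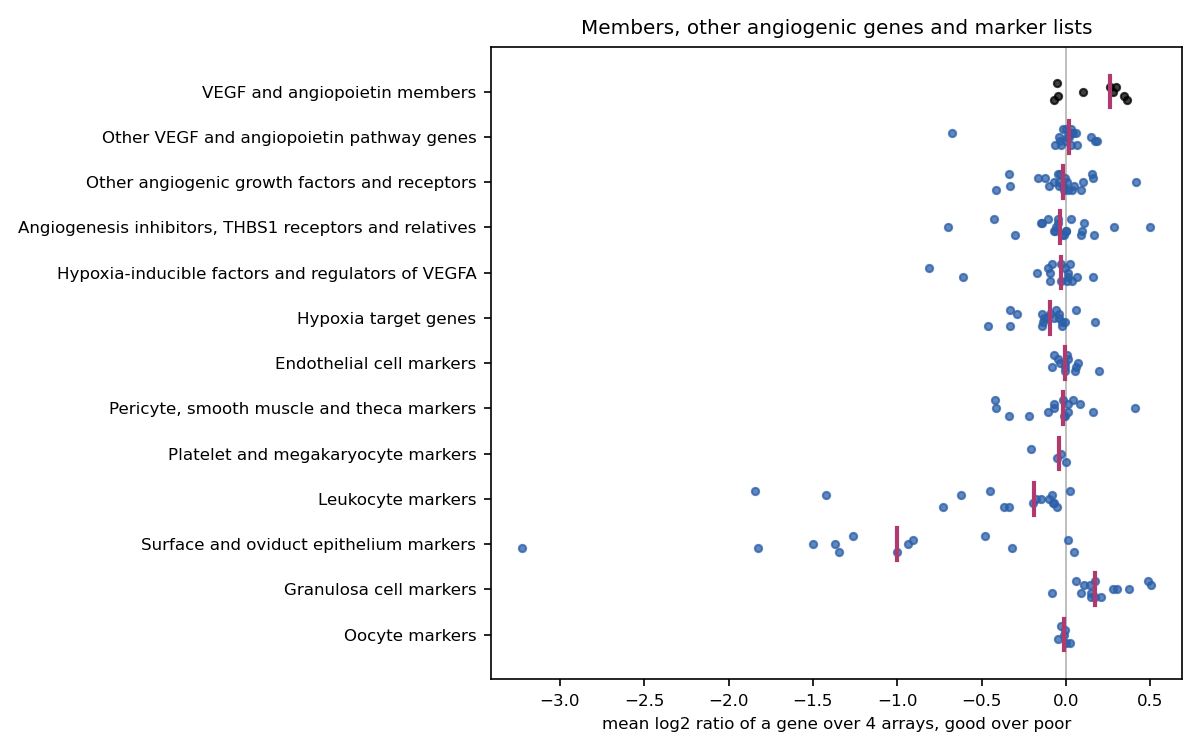
Mean log2 ratio of good over poor for each tested gene (points, x axis) in the member list (black) and in the pathway and marker lists (blue), with the list median as a pink bar. Endothelial markers centre on -0.004, hypoxia targets on -0.10 and epithelium markers on -1.001, and the members have a median of 0.26. By array the members' median was above 0 only with the good pool in Cy5.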

How the data were processed

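Per the file headers, the authors deposited scanner files with the intensity of each spot and its surroundings in the Cy5 and Cy3 channels. The deposited table of normalized log2 ratios comes with no stated method. Against the scanner ratios turned to good over poor, that deposited table had r from -0.99 to -0.97, so it runs as poor over good; its column medians were 0.023, 0.0039, -0.015 and -0.029. It served as an alternative only. Scanner and software: not given in the sources used here.

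Mean foreground was corrected with median background by normexp (offset 50), ratios were normalized by loess within arrays with control spots at weight 0, and levels by Aquantile (limma 3.58.1, R 4.3.3). Spots that the scanner files mark as ignored (84 probe spots on array 4, 2 to 5 on the others, no member) were left out. The dye labels set each ratio's direction, and lmFit and eBayes tested their mean against 0 over 31917 probes, two-sided, with Benjamini-Hochberg adjustment (3 residual and 1.98 prior degrees of freedom). Intervals are 95% intervals from the same fit. The code was tested on simulated data. A gene is represented by its brightest tested probe. Of 43794 probes 21790 had 1 symbol, 0 had several and 22004 had none; all 10 members matched the RefSeq table of assembly ARS-UCD2.0, and no coordinates are given because the array annotation names no build. Named genes are all members, the up to 4 genes of each list with the smallest p, and the 5 genes most like VEGFA. Any other gene named was chosen after its values were seen. These are OVGP1, DCN, LUM, KRT19, FOXJ1, PAX8, CCN2, ADAMTS1, TIMP1, ACTA2, MCAM, CYP17A1, INHA, LYZ, detection examples such as PECAM1, and the genes most like other members. The members and lists were chosen with earlier results of these data known. All 4 arrays were on 1 slide. Alternatives changed background correction, normalization, filter, dye term, spread, model (separate channels), source, probe choice, threshold and arrays; the number of arrays limits the precision.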

Additional observations from a re-analysis of the deposited data

Results flagged for a closer look

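Among 36 sets of 4 values, 2 held a value far from the rest, and chance alone would give 1.8. The VEGFC ratio on array 3 was 0.49, and the others lay between 0.17 and 0.20. The level of the brightest NRP1 probe in poor-donor pool 12 was 10.81, and the other poor-donor pools lay between 10.10 and 10.20.

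For 2 member probes every ratio had 1 sign with the good pool in Cy5 and the opposite sign with it in Cy3. Orientation means of opposite sign, without such a split on every array, were also found for VEGFB (-0.01 and 0.22), KDR (0.66 and -0.10) and ANGPT2 (0.73 and -0.04). The second VEGFA probe had means of -0.08 and 0.09, a difference of -0.17 (limma dye term, adjusted p = 0.453). The NRP1 probe EMBV3_11450 had means of 0.19 and -0.30, a difference of 0.49 (limma dye term, adjusted p = 0.267). Over all probes 29.3% showed such a split, and the dye term had an unadjusted p under 0.05 for 16.6%.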

How the results depend on the processing

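No probe passed the adjusted threshold under any alternative run; with an unadjusted p under 0.05 in place of the adjusted one, 1131 probes and 1 member probe passed. Leaving out 1 array at a time gave means of -0.10 to -0.001 for VEGFA, -0.05 to 0.18 for VEGFB, 0.19 to 0.30 for VEGFC, -0.04 to 0.59 for KDR, 0.16 to 0.46 for NRP1, -0.06 to -0.02 for NRP2, -0.18 to 0.03 for ANGPT1, 0.05 to 0.58 for ANGPT2 and -0.53 to 1.05 for THBS1. The sign turned for VEGFB without array 4 (-0.0531) and, without array 1, for KDR (-0.0414), ANGPT1 (0.0298) and THBS1 (-0.53); the cause was not tested. Under the other alternatives no member turned. The unadjusted limma p of VEGFC ranged from 0.0137 to 0.138, above 0.05 with median centring and with an intensity trend (0.0535), and its smallest adjusted p was 0.842. KDR and NRP2 had no value with the filter on all 8 channels. Keeping the ignored spots was chosen after seeing the data. Dim probes (FLT1, NRP2, VEGFA, KDR, ANGPT1 and the dimmest of NRP1) limit what can be said of these genes.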

Other observations

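For members other than VEGFA, the genes with the closest pool levels were looked up after the members' values were seen, among 10433 genes above background in all 8 channels. For KDR they were EFEMP1, CCDC113, MFAP5, DRC1 and SYNC, with r from 0.96 to 0.99 over 8 pools. EFEMP1 is a matrix protein, and CCDC113 and DRC1 are proteins of motile cilia. CCDC113 had log2 ratios of good over poor of 2.48, 0.04, -1.17 and 0.89 on arrays 1 to 4, beside 1.25, 0.07, -0.66 and 0.47 for KDR. For THBS1 they were ARHGAP24, TEKT2, TMEM167B, C9H6ORF165 and CLDN11, with r from 0.95 to 0.97. TEKT2 is a tektin of ciliary microtubules. CLDN11, a tight junction claudin, had ratios of 3.76, -1.27, -2.19 and 0.63. For VEGFC they were PTGR2, APTX, LYPLAL1, GDAP1L1 and PSME4, with r from 0.95 to 0.98 and a positive ratio on all 4 arrays for each. The pools share arrays and dyes, and these genes are the top of a long ranking over 8 values, so r is a description only. FOXJ1 and PAX8, of the epithelium list, were dim, with mean levels between 6.25 and 6.38. Their ratios on arrays 1 to 4 were 0.06, -0.22, 0.12 and 0.09 for FOXJ1 and 0.27, 0.19, -0.04 and -0.22 for PAX8.

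CCN2, a matrix-associated growth regulator, was picked with its values known and had ratios of 1.90, -1.80, -1.41 and 0.90 on arrays 1 to 4. These had the same sign as those of THBS1 on every array. ADAMTS1, a protease with anti-angiogenic activity, had 2.80, -1.25, -1.02 and -1.73, and the metalloprotease inhibitor TIMP1 had 3.81, -2.05, -3.60 and -0.94, so both parted from THBS1 on array 4.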
